A study of Mus musculus with 12 samples.

Results

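The genes H2-Aa, H2-Ab1, H2-Eb1, H2-DMa and Cd74, which act in antigen presentation by class II molecules of the major histocompatibility complex (MHC), were followed across mammary glands, mammary tumors and tumor cell lines of mice. The members were all probe sets that the platform annotation assigned to these 5 genes and to no other gene. There were 8 of them, out of 20380 probe sets with 1 gene, and they stood for 5 of 12393 genes. H2-Aa had 2 probe sets, H2-Ab1 had 3, and the 3 other genes had 1 each. A probe set is a group of short oligonucleotides on the array that together measure a transcript.

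RNA was measured on 12 single-colour arrays, 3 in each of 4 groups. The cell lines, each on 1 array and with no strain given, were ME-A, the revertant ME-B and the retransformed ME-B-T/t. The WAP-SVT/t tumors were 3 breast cancers of female mice. The WAP-SVT/t glands were 3 mammary glands of female mice on day 1 of lactation, and the NMRI glands were 3 such glands, on the same day, of mice without the transgene. WAP-SVT/t mice make the T and t antigens of simian virus 40 in the epithelium of the mammary gland, per the labels, which give NMRI, an outbred stock, as the strain of all tissue samples. The labels state no ages. The tissue was ground whole, so fewer cells of a type and less RNA per cell cannot be told apart. The labels name sample and tumor numbers but not whether each came from a separate animal, so p-values measure the spread between these samples. Values are scaled signals in intensity units. A floor of 57.3 was set before log2 values were taken, and values under it have no order. Errors of log2 differences are standard errors, with n = 3 arrays a group. The number of arrays limits the precision.

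MHC class II molecules show peptides from engulfed material to CD4 T cells. H2-Aa and H2-Ab1 encode the alpha and beta chains of the I-A molecule, and H2-Eb1 encodes the beta chain of the I-E molecule, whose alpha chain is the product of H2-Ea. Cd74 encodes the invariant chain, which occupies the peptide groove during transport, and H2-DMa the alpha chain of H2-DM, which exchanges the remnant of that chain for antigen peptides. Dendritic cells, B cells and activated macrophages are the usual sources, while epithelial cells can make class II molecules after interferon-gamma. Transcription depends on Ciita, the class II transactivator, which docks on a promoter module of X and Y boxes bound by RFX, CREB and NF-Y factors. The class II chain genes are highly polymorphic between mouse strains.

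In the mouse assembly GRCm38.p6, RefSeq places the 4 H2 genes, H2-DMa (34119693 to 34139101), H2-Ab1 (34263227 to 34269418), H2-Aa (34282744 to 34287823) and H2-Eb1 (34305867 to 34316674) on chromosome 17. RefSeq promoter windows were used for H2-Aa, H2-Eb1 and H2-DMa. Each ran for 250 bases before the start of transcription and 50 bases after it. The windows of H2-Aa and H2-Eb1 are shown because these genes differ in their behaviour below while both windows hold the letters of the class II module. Capitals mark GCAAC, letters found in X boxes, and GATTGG, the Y box core in the orientation of the gene.
H2-Aa, chr17:34287774-34288073, minus strand: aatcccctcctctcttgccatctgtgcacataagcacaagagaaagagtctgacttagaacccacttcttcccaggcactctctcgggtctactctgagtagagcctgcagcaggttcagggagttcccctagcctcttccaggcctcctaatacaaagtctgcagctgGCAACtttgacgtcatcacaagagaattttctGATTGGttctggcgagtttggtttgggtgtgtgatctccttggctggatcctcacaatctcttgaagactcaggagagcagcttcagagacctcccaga
H2-Eb1, chr17:34305617-34305916, plus strand: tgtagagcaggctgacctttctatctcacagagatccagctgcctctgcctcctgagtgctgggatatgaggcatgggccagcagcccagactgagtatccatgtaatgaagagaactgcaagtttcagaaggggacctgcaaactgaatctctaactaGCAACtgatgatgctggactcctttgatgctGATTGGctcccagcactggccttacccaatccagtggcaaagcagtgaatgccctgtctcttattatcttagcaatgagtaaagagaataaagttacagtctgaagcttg
In H2-Aa, GCAAC began 81 bases and GATTGG 49 bases before the start, with 27 bases between them. In H2-Eb1 they began 91 and 60 bases before the start, with 26 bases between them. Neither of the 2 H2-DMa windows held the pair. The pair was searched on both strands with 15 to 40 bases between its parts, which do not overlap, and was found in 0.435% of 32851 mouse promoter windows. GATTGG alone was found in 16.1% and GCAAC alone in 35.2%. Of 5 windows of other class II genes, 3 held the pair, those of H2-Eb2, H2-Oa and H2-Ob. A match is a run of letters, not a measured binding site.

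H2-Aa, the I-A alpha chain gene, had overlapping signals in tumors and glands and signals near or under the floor in the lines. Its probe set 1435290_x_at read 47.4, 68.5 and 28.4 in the lines ME-A, ME-B, ME-B-T/t. It read 3242, 4411 and 676 in tumors 1 to 3, 1055, 2598 and 2424 in WAP-SVT/t glands 1 to 3, and 1283, 1010 and 2282 in NMRI glands 1 to 3. ME-B alone of the lines was above the floor, and the tissue groups overlapped. The second probe set, 1452431_s_at, was under the floor in all 3 lines, at 17.0, 40.9 and 50.7. It read 2135, 3653 and 400 in the tumors, 620, 1873 and 540 in WAP-SVT/t glands and 1102, 1086 and 2248 in NMRI glands. In both probe sets tumor 3 was the lowest tumor by a wide margin.

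H2-Ab1, the I-A beta chain gene, had a like distribution in 3 probe sets. Probe set 1450648_s_at read 11.0, 9.82 and 13.2 in the lines ME-A, ME-B, ME-B-T/t, 1234, 1478 and 449 in the tumors, 558, 1498 and 654 in WAP-SVT/t glands and 642, 901 and 890 in NMRI glands. Probe set 1451721_a_at read 9.86, 37.9 and 25.9 in the lines, 1044, 1631 and 212 in the tumors, 366, 892 and 326 in WAP-SVT/t glands and 413, 409 and 612 in NMRI glands. The lines were under the floor on all arrays, and tumor 3 was again the lowest tissue array. Probe set 1425477_x_at, also under the floor in every line (4.48 to 6.32), had the widest range among tumors, with 872, 1869 and 83.4. Its signals were 401, 692 and 226 in WAP-SVT/t glands and 198, 281 and 311 in NMRI glands.

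Cd74, the invariant chain gene, followed the I-A chains in tissue. It read 105, 89.9 and 139 in the lines ME-A, ME-B, ME-B-T/t, 3267, 3959 and 636 in the tumors, 1126, 3113 and 1431 in WAP-SVT/t glands and 992, 1151 and 1756 in NMRI glands. All 3 lines were above the floor but below every tissue array. H2-DMa, which encodes a subunit of the peptide exchange factor, had the smallest difference between lines and tumors. It read 194, 103 and 130.5 in the lines, 318, 401 and 138 in the tumors, 131, 322 and 125 in WAP-SVT/t glands and 173, 203 and 300 in NMRI glands, so that lines and tissue overlapped.

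H2-Eb1, the I-E beta chain gene, stood apart from the other members in the glands. It read 141, 136 and 151 in the lines, 2876, 1859 and 369 in the tumors and 1285, 1983 and 1439 in WAP-SVT/t glands, against 247, 212 and 405 in NMRI glands. Every WAP-SVT/t gland lay above every NMRI gland, and tumors 1 and 2 did too, while tumor 3 lay below NMRI gland 3. By arithmetic mean signal the groups ran in the order tumors, WAP-SVT/t glands, NMRI glands and lines in 6 of 8 probe sets. For H2-Eb1, 1 of these, the mean log2 value was lower in tumors (10.29) than in WAP-SVT/t glands (10.59), so this rank depends on the kind of mean. In H2-DMa and in 1452431_s_at of H2-Aa, NMRI glands came before WAP-SVT/t glands. The lines lay below all tissue arrays in every probe set but H2-DMa. Neighbouring tissue groups in these orders overlapped in every case but H2-Eb1 in WAP-SVT/t and NMRI glands.

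**Figure D1:**
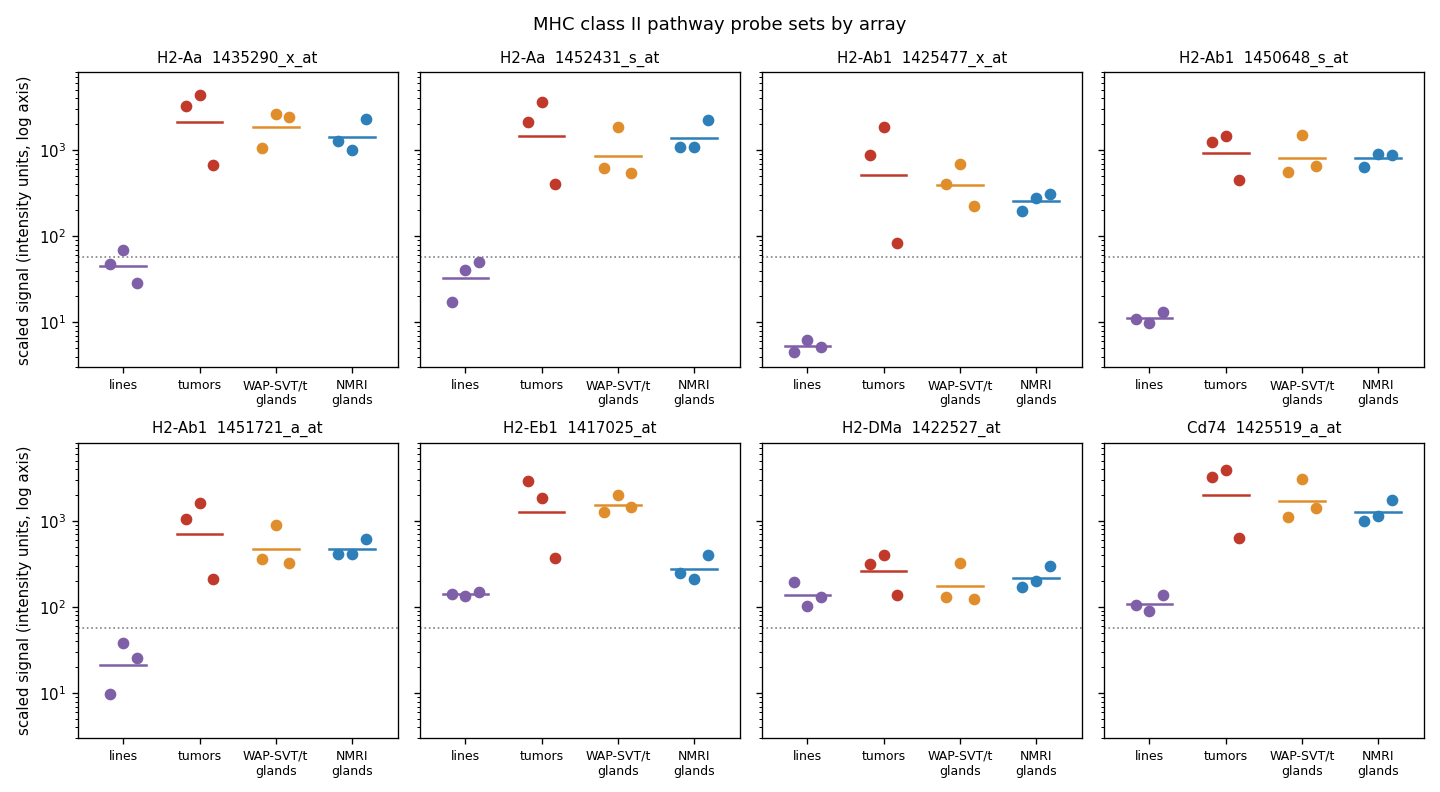
Scaled signal of each class II probe set on each array (intensity units, log axis), with lines, tumors, WAP-SVT/t glands and NMRI glands from left to right. Points are arrays in the order 1 to 3 (for the lines ME-A, ME-B, ME-B-T/t), bars are geometric means of the signals before the floor, and the dotted line is the floor of 57.3. The lines lie under the floor in all H2-Ab1 probe sets, tumor 3 is the lowest tumor in each panel, and H2-Eb1 separates the WAP-SVT/t glands (1285 to 1983) from the NMRI glands (212 to 405).

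WAP-SVT/t glands were set against NMRI glands to compare tissue with and without the transgene on the same day of lactation. H2-Eb1 was higher in WAP-SVT/t glands by a log2 difference of 2.48 ± 0.62, or 5.57-fold (limma, adjusted p = 0.0313). It was the 1 of 8 member probe sets past an adjusted p of 0.05, where 9.15% of 11657 probe sets passed, 5.63% as higher. The labels do not give the H2 haplotype of either group, and how well its alleles match the probes was not tested, so this is a difference of signal. In a fit of the 6 glands alone with the sample number as a block, chosen after seeing the data, H2-Eb1 was again the 1 of 8 that passed (limma, adjusted p = 0.00172), where 16.1% of 10805 probe sets passed. In each of the 3 same-numbered pairs of glands the WAP-SVT/t gland had the higher H2-Eb1 signal. Any pairing would give this, since every WAP-SVT/t gland lay above every NMRI gland. Groups without overlap were found for 15.8% of probe sets as higher. The 7 other member probe sets had log2 differences between -0.70 and 0.62 and adjusted p from 0.608 to 0.993 (limma). H2-Aa was on both sides of 0, with 0.39 ± 0.64 for 1435290_x_at and -0.70 ± 0.74 for 1452431_s_at, and Cd74 had 0.44 ± 0.62. The median over the 8 member probe sets was 0.21, against 0.02 over all probe sets tested. The call for H2-Eb1 was lost when any WAP-SVT/t gland, or NMRI gland 1 or 2, was left out, with log2 differences of 2.29 to 2.61 and adjusted p of 0.0643 to 0.112 (limma). It was also lost without a filter on dim probe sets, at adjusted p = 0.127.

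Tumors were set against WAP-SVT/t glands, which carry the same transgene. No class II probe set passed the test. In limma, 0 of 8 passed and 0 had an unadjusted p under 0.05 (lowest 0.241, for H2-DMa), where 2.31% of 11657 probe sets passed. Adjusted p ran from 0.604 to 0.933. Cd74 had a log2 difference of 0.24 with a 95% interval of -1.14 to 1.62, and H2-Eb1 one of -0.30 with an interval of -1.67 to 1.07. The widest interval was that of H2-Ab1 probe set 1425477_x_at, from -1.63 to 2.37. These named intervals leave room for differences of more than 2-fold in either direction. The lower ends for H2-DMa (-0.45), H2-Ab1 1450648_s_at and 1451721_a_at (both -0.86) and H2-Aa 1452431_s_at (-0.86) were within 2-fold, and their upper ends were not. The member median was 0.31, against 0.02 over all probe sets tested. Without tumor 3 the 8 differences lay between 0.59 and 1.71, and 0 passed.

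Tumors were also set against NMRI glands. This comparison shares its tumors and its NMRI glands with those above, so its values stand beside them and add no independent evidence. H2-Eb1 was higher in tumors by 2.18 ± 0.62 on the log2 scale, or 4.53-fold (limma, adjusted p = 0.0282), although tumor 3 overlapped with the NMRI glands. It was the 1 of 8 probe sets that passed, where 23.0% of 11657 passed, 12.6% as higher. Cd74 had 0.68 ± 0.62, and the other probe sets lay between 0.07 and 0.99, with adjusted p from 0.462 to 0.957 (limma). Without tumor 3, 4 member probe sets passed: H2-Eb1 at 3.06, H2-Ab1 1425477_x_at at 2.31 (adjusted p = 0.0112), H2-Ab1 1451721_a_at at 1.48 (adjusted p = 0.0486) and Cd74 at 1.51 (adjusted p = 0.0363, limma). The H2-Eb1 call was lost without a filter on dim probe sets (adjusted p = 0.114) and with only these 2 groups in the fit (adjusted p = 0.0502, limma). Without tumor 1, tumor 2, NMRI gland 1 or NMRI gland 2, 0 passed, and H2-Eb1 had adjusted p of 0.0847 to 0.0966 (limma).

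Cell lines were set against tumors as a class, because each line had 1 array. The names and labels, revertant ME-B and retransformed ME-B-T/t, read as if ME-B-T/t was derived from ME-B. The fit treated all lines as independent samples. If they are not, the errors and p-values of cell lines against tumors, here and below, may be too small. The I-A chain genes and Cd74 fell in the lines. Of 7 member probe sets tested, 5 were lower, where 2.37% of 11014 probe sets passed, 1.75% as lower. All 5 were under the pooled median of 139.7 in every line and so reached the test through the tumors, where they were high, as did 151 of all 193 probe sets called as lower. The count of 5 is therefore a description, and without the filter 0 member probe sets passed (limma, adjusted p from 0.0673 to 0.213 for these 5). H2-Aa 1435290_x_at was 35.0-fold lower (log2 difference -5.13 ± 0.66, limma adjusted p = 0.0111), a size that depends on the floor because ME-A and ME-B-T/t were at it. H2-Aa 1452431_s_at was at least 25.5-fold lower (limma, adjusted p = 0.0236). H2-Ab1 was at least 16.3-fold lower by 1450648_s_at (limma, adjusted p = 0.00650) and at least 12.4-fold lower by 1451721_a_at (limma, adjusted p = 0.0487). Cd74 was 18.5-fold lower, with a log2 difference of -4.21 ± 0.67 (limma, adjusted p = 0.0235).

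The other 3 probe sets were not called. H2-Eb1 had a log2 difference of -3.14 ± 0.70 with no overlap between lines and tumors, and adjusted p = 0.0794 (limma). No overlap with lines lower was found for 11.3% of all probe sets. H2-DMa had -0.92 ± 0.46 and adjusted p = 0.357 (limma). H2-Ab1 1425477_x_at did not reach the signal filter, since only 2 tumors were above the pooled median, and was not tested. The geometric mean of its tumors was at least 8.98-fold above that of the lines, all under the floor, while tumor 3 at 83.4 lay near the floor. Over the 7 tested probe sets the median log2 difference was -4.03, against 0.03 over all probe sets tested. The count of 5 became 6, with H2-Eb1 added, without tumor 3 or without ME-A. It became 2 without tumor 2 and 1 without tumor 1, ME-B or ME-B-T/t, when H2-Ab1 1450648_s_at still passed, as it did in all 6 such fits (adjusted p up to 0.0434, limma).

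**Figure D2:**
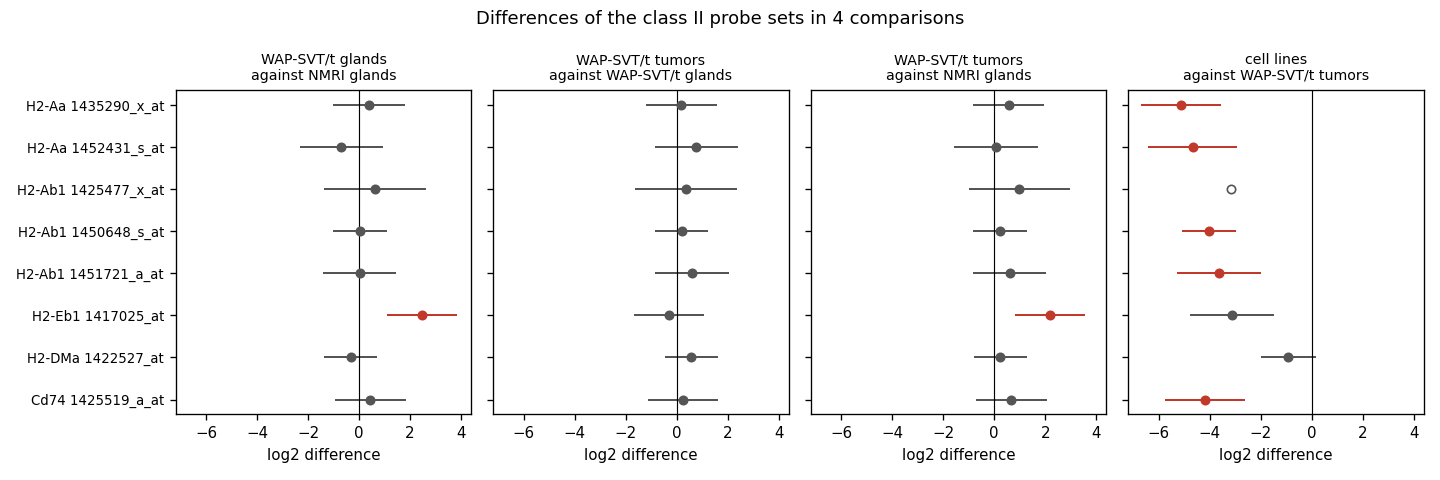
Log2 differences of the 8 class II probe sets with 95% intervals in 4 comparisons. Red points passed an adjusted p of 0.05 (limma), grey points did not, and the open point was not tested. H2-Eb1 is the 1 red point in WAP-SVT/t glands against NMRI glands (2.48) and in tumors against NMRI glands (2.18), and 5 probe sets are red in cell lines against tumors.

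The tumors differed among themselves more in the class II genes than in most others. Tumor 3 was the lowest tumor in 8 of 8 member probe sets, and tumor 2 the highest in 7. The lower of tumors 1 and 2 exceeded tumor 3 by 10.5-fold for H2-Ab1 1425477_x_at, by 5.14-fold for Cd74 and by 2.30-fold, the smallest ratio, for H2-DMa. The ratio of the highest to the lowest tumor had a median of 7.11 over the member probe sets and 1.51 over the 11657 tested. Only 1.29% of all probe sets exceeded that member median. Tumor 3 was singled out after these values were seen, and with 3 tumors no test of 1 against 2 is given.

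The sum of macrophage and myeloid markers did not follow this order. Over 25 such genes the summed signal was 23564, 24839 and 27199 in tumors 1 to 3. The 5 class II genes summed to 10937, 12107 and 2268 in the same tumors. Single genes of the macrophage list differed in their order. Clec7a read 720, 840 and 320, in the order of the class II sums. Ctss, the protease that trims the invariant chain in antigen-presenting cells, read 3552, 3617 and 4599 in tumors 1 to 3. Tumor 3 was thus the highest tumor for Ctss and the lowest for Cd74. Pan-leukocyte genes summed to 4669, 4408 and 2821 over 10 genes, and dendritic cell markers to 2964, 2701 and 1961 over 17 genes, both lowest in tumor 3. Ptprc, which encodes the leukocyte antigen CD45, read 863, 487 and 483. Dendritic cell genes were at the floor in 4, 2 and 5 of 17 cases in tumors 1 to 3. B cell markers summed to 1473, 1963 and 1323 over 15 genes, with tumor 2 highest and tumor 3 lowest, the order of the class II sums. Adipocyte and skeletal muscle markers were highest in tumor 1 (sums of 18600 and 17281), the tumor whose Gapdh control ratio, 3-prime over 5-prime, was 5.63 against 0.982 and 0.969 in tumors 2 and 3. The part of these markers in the class II levels was not tested.

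Among WAP-SVT/t glands, gland 2 was highest in 8 of 8 member probe sets, with a median ratio of 2.71 between the highest and the lowest gland that 12.3% of all probe sets exceeded. The summed signal of every leukocyte list was also highest in gland 2. Not every gene was, as Ctss read 1457, 1914 and 4252 in WAP-SVT/t glands 1 to 3. Pan-leukocyte genes summed to 2211, 8397 and 3417 over 10 genes in WAP-SVT/t glands 1 to 3, dendritic cell markers to 1830, 3415 and 1868 over 17 genes, and macrophage and myeloid markers to 15978, 29644 and 25923 over 25 genes. B cell markers summed to 2727, 7002 and 2087 over 15 genes in WAP-SVT/t glands 1 to 3, and T and NK cell markers to 1702, 3865 and 1783 over 18 genes. Cd79a, a subunit of the B cell receptor, read 58.8, 363 and 56.0, and Cd3d, a subunit of the T cell receptor complex, 13.1, 478 and 4.05. Both genes were named after their values were seen. In NMRI glands these lists summed to between 2099 and 2993 and between 2466 and 3092. H2-Eb1 was less uneven, as 1285 in gland 1 and 1439 in gland 3 were both above every NMRI gland. Without gland 2 its log2 difference against NMRI glands was 2.30 (adjusted p = 0.0915, limma). Among NMRI glands, gland 3 was highest in 7 of 8 member probe sets, with a median ratio of 1.75 that 29.6% of all probe sets exceeded.

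**Figure D3:**
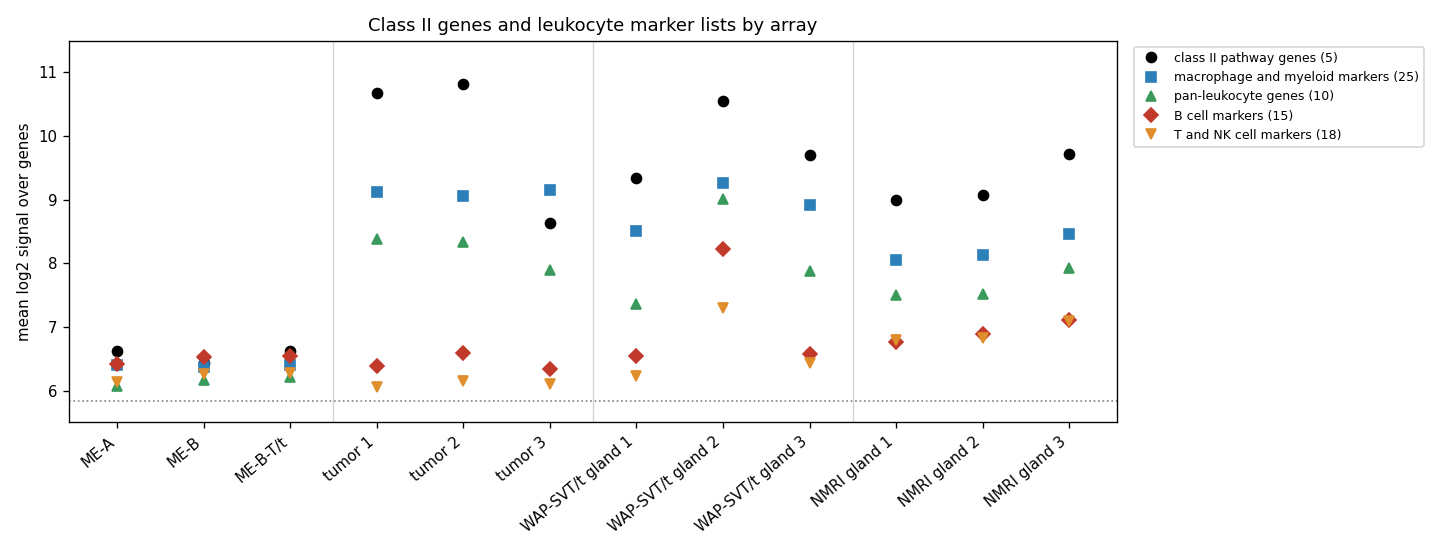
Mean log2 signal over the 5 class II genes and over 4 marker lists on each array, with 1 probe set per gene, lines at the left and NMRI glands at the right. The dotted line is the floor and numbers of genes are in the legend. The class II mean is 8.63 in tumor 3 against 10.68 and 10.82 in tumors 1 and 2, where the macrophage mean stays between 9.06 and 9.15, and the B cell mean of 8.23 in WAP-SVT/t gland 2 stands above all other arrays.

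The I-E beta chain gene was compared with the other members within each array. The log2 value of H2-Eb1 minus the mean of the 7 other probe sets has no meaning on its own, since probe sets differ in brightness, but it can be compared between arrays. It was 1.09, -0.08 and 0.33 in tumors 1 to 3, 1.36, 0.68 and 1.45 in WAP-SVT/t glands, and -1.12, -1.49 and -1.14 in NMRI glands. All 6 arrays of WAP-SVT/t tissue lay above the 3 NMRI glands. WAP-SVT/t glands exceeded NMRI glands by 2.41 and tumors exceeded them by 1.70, each with an exact two-sided permutation p = 0.1, the smallest that 3 against 3 arrays allow. Tumors differed from WAP-SVT/t glands by -0.72 (exact permutation p = 0.2). These 3 p-values are not adjusted and the measure was chosen after the values of H2-Eb1 were known. In the lines, where 4 or 5 of the 8 member probe sets were at the floor, it was 0.93 to 1.05. The Gapdh ratio, which rises where the 5-prime end of RNA is lost, was 10.7, 2.49 and 22.5 in WAP-SVT/t glands 1 to 3 and 12.9, 2.28 and 40.3 in NMRI glands 1 to 3. Gland 2 of each genotype thus had the lowest ratio. Skeletal muscle markers summed to 1767, 2007 and 31182 over 17 genes in WAP-SVT/t glands 1 to 3, and to 33071, 15670 and 23202 in NMRI glands 1 to 3. In WAP-SVT/t against NMRI glands 0 of 19 muscle probe sets passed (limma, median log2 difference -2.13), where 9.15% of all probe sets passed. The parts of RNA quality and of muscle RNA in the H2-Eb1 difference were not tested.

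H2-Ea, the gene of the I-E alpha chain, had low signals. Its probe set 1422892_s_at read 14.6, 123 and 30.2 in tumors 1 to 3, 24.8, 17.9 and 25.3 in WAP-SVT/t glands and 82.2, 142 and 144 in NMRI glands. The 3 NMRI glands and tumor 2 were above the floor, and all other tissue arrays and the lines (19.9 to 33.3) were under it. The probe set did not reach the signal filter and was not tested, and the 2 other H2-Ea probe sets were under the floor on all 12 arrays. Tumor 2, the tumor with H2-Ea above the floor, was also the tumor with the lowest H2-Eb1 relative to the other members. H2-DMb2, a beta chain gene of the exchange factor, read 141, 127 and 220 in the lines, 85.1, 150 and 114 in the tumors, 69.5, 203 and 161 in WAP-SVT/t glands and 107, 123 and 124 in NMRI glands. It did not pass in any comparison (limma, adjusted p from 0.511 to 0.936). H2-Oa, which encodes a chain of an inhibitor of H2-DM, stayed between 39.0 and 165 on all arrays and was not tested. H2-Eb2, H2-DMb1 and H2-Ob had no probe set of their own among those used.

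**Figure D4:**
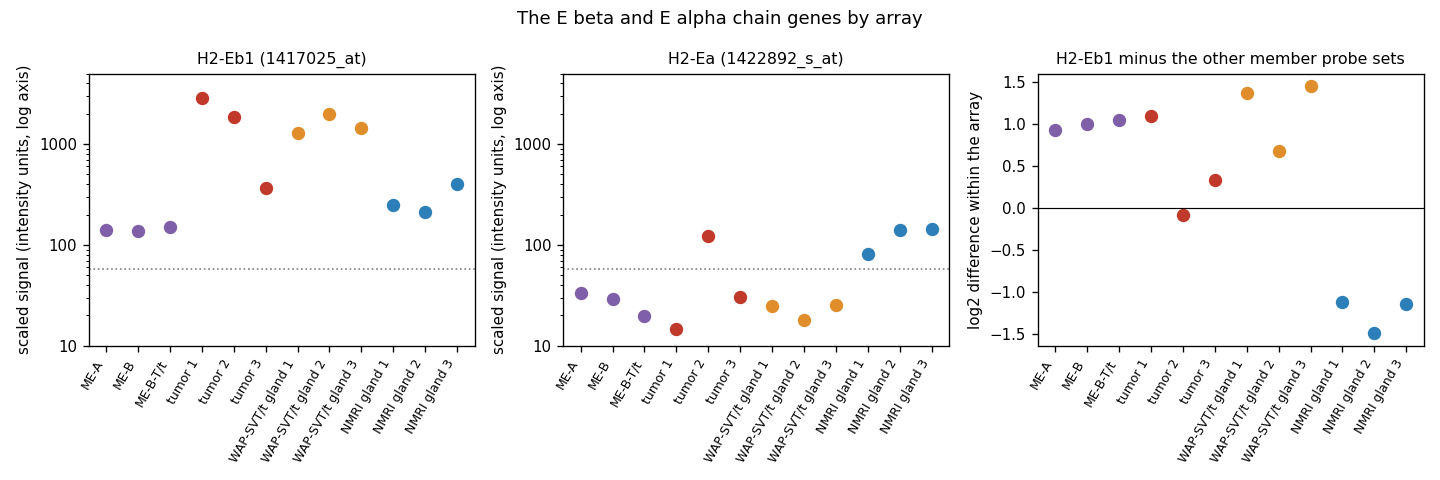
Scaled signal of H2-Eb1 and of H2-Ea (intensity units, log axes), and the log2 difference of H2-Eb1 from the mean of the 7 other member probe sets, on each of 12 arrays, with lines at the left and NMRI glands at the right. Colours mark the groups and dotted lines the floor. H2-Eb1 is low (212 to 405) and H2-Ea above the floor (82.2 to 144) in the 3 NMRI glands, and the difference is below -1 there only, among the 12 arrays.

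Of 7 probe sets tested for regulators of the class II module, 1 was higher in WAP-SVT/t glands than in NMRI glands (4 at an unadjusted p under 0.05, median log2 difference 0.50) and 1 in tumors than in NMRI glands (3 at an unadjusted p under 0.05, median 0.44). Over all probe sets 5.63% and 12.6% were called as higher in these comparisons. Both regulator calls were for Nfyb, a subunit of the Y box factor NF-Y. Its probe set 1419267_at read 198, 142 and 171 in tumors, 183, 127 and 177 in WAP-SVT/t glands and 61.4, 81.9 and 85.1 in NMRI glands. It was 2.13-fold higher in WAP-SVT/t glands (limma, adjusted p = 0.0359) and 2.24-fold higher in tumors (limma, adjusted p = 0.0140). The other Nfyb probe set, 1419266_at, was not called. It read 128, 251 and 291 in the tumors, 264, 284 and 256 in WAP-SVT/t glands and 218, 204 and 151 in NMRI glands. Ciita, the transactivator, stayed between 34.4 and 101 on all arrays by 1421210_at, near the floor, and was not tested. Rfx5, a subunit of the X box factor, read 314, 225 and 464 in the lines, 413, 412 and 432 in the tumors, 378, 448 and 465 in WAP-SVT/t glands and 281, 322 and 327 in NMRI glands, and was not called. Nfya and Nfyc, the other NF-Y subunit genes, had log2 differences of 0.82 and 0.83 in WAP-SVT/t against NMRI glands (limma, adjusted p = 0.0992 and 0.117). In the fit of the glands alone with the sample number as a block both passed (limma, adjusted p = 0.0462 and 0.0465), and 1419267_at of Nfyb did not reach the signal filter. Rfxap and Rfxank, RFX subunit genes, were not called in any comparison (limma), the latter by 1455371_at. The other Rfxank probe sets did not reach the signal filter and were not tested. Of these, 1419310_s_at read 99.9, 74.7 and 81.9 in tumors and 77.4, 118 and 46.9 in WAP-SVT/t glands. In NMRI glands it read 8.3, 19.0 and 14.7, all under the floor. Probe set 1425670_at read 69.0, 63.4 and 74.7 in WAP-SVT/t glands, and tumors 1 and 3 and the NMRI glands were under the floor. Creb1, a CREB factor gene, was not tested, with signals of at most 127.5 on all arrays. In limma, 0 of 7 passed in tumors against WAP-SVT/t glands (0 at an unadjusted p under 0.05), where 2.31% of all probe sets passed. In cell lines against tumors 0 of 7 passed (1 at an unadjusted p under 0.05), where 2.37% of all probe sets passed.

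Genes of antigen processing and turnover passed at a share near that of all probe sets in tumors against NMRI glands. Of 19 probe sets tested, 2 rose and 3 fell there. Of all probe sets 12.6% passed as higher and 10.5% as lower. Ctss was 3.54-fold higher (limma, adjusted p = 0.0149). Ctsl, a protease of the same family, was 2.82-fold lower (limma, adjusted p = 0.00376), with 3098, 2449 and 2314 in tumors against 6740, 9281 and 6276 in NMRI glands. Ctsb, a further lysosomal protease, was 1.82-fold lower by 1417490_at (limma, adjusted p = 0.00578). In cell lines against tumors 2 of 20 fell, where 1.75% of all probe sets passed as lower. Ctss was at least 68.0-fold lower (limma, adjusted p = 0.000111), as all lines were under the floor (34.0, 25.0 and 29.7). Ctsb was 2.80-fold lower by 1417492_at (limma, adjusted p = 0.0492). Both were under the pooled median in every line and so reached the test through the tumors. In limma, 0 of 19 passed in WAP-SVT/t against NMRI glands (6 at an unadjusted p under 0.05), where 9.15% of all probe sets passed. In the fit of the glands alone with the block 2 of 18 passed, Ctss higher and Ctsl lower, where 16.1% passed. In tumors against WAP-SVT/t glands 0 of 19 passed (2 at an unadjusted p under 0.05), where 2.31% passed.

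Interferon-gamma signalling and responder genes are given beside the share of all probe sets that passed. In limma, 0 of 22 probe sets passed in WAP-SVT/t against NMRI glands (4 at an unadjusted p under 0.05), with a median of 0.15. Of all probe sets 9.15% passed there. In tumors against WAP-SVT/t glands 0 passed too (0 at an unadjusted p under 0.05), with a median of -0.02, where 2.31% of all probe sets passed. In tumors against NMRI glands 2 rose and 1 fell, where 12.6% of all probe sets passed as higher and 10.5% as lower. Cxcl10, a chemokine induced by interferons, was at least 4.43-fold higher, as all NMRI glands were under the floor (limma, adjusted p = 0.0159), Psmb9, an immunoproteasome subunit gene, 2.24-fold higher (limma, adjusted p = 0.0258), and Cxcl9, a chemokine induced by interferon-gamma, 3.08-fold lower (limma, adjusted p = 0.0243), a size that depends on the floor because 1 tumor was under it. In cell lines against tumors 0 of 20 passed in limma (4 at an unadjusted p under 0.05), with a median of -0.52. Of all probe sets 2.37% passed there. Ifng itself was under the floor on all 12 arrays (18.7 to 52.5).

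Macrophage, myeloid and pan-leukocyte genes fell with the class II genes in the lines. Of 26 macrophage and myeloid probe sets tested, 23 were lower in lines than in tumors, with a median of -3.07. Of 10 pan-leukocyte probe sets 9 were lower, with a median of -2.64. Over all 11014 probe sets tested, 2.37% passed, 1.75% as lower. A probe set under the pooled median in all 3 lines could reach the test only through the tumors, where it was high. The counts of lower probe sets in this paragraph are therefore a description. C1qc, a complement gene of tissue macrophages, was at least 29.6-fold lower (limma, adjusted p = 0.000265), and Ptprc at least 10.3-fold lower (limma, adjusted p = 0.00285), with 18.0, 27.0 and 28.8 in the lines, all under the floor. In each line 7 of 10 pan-leukocyte genes and 12 to 14 of 25 macrophage genes were at the floor. Icam1, an adhesion molecule gene in the list of costimulatory molecules, was at least 5.43-fold lower (limma, adjusted p = 0.00430). Luminal epithelium markers, which bear on the lines' label as breast cancer cells, summed to 36523 in ME-A, 2696 in ME-B and 1577 in ME-B-T/t over 13 genes, against 27508 to 36333 in the tumors. The class II signals were low in ME-A and in both lines with low luminal sums. Of 6 dendritic cell probe sets 0 passed in cell lines against tumors (limma, 4 at an unadjusted p under 0.05), and of 5 B cell probe sets 1 was lower, Cd72, a B cell surface protein gene, by 3.88-fold (limma, adjusted p = 0.0121), a size that depends on the floor because 2 of 3 lines were under it. The part of leukocyte RNA in the tumor signals was not tested.

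In tissue, markers of class II bearing cells were compared between groups as follows. Over all probe sets 5.63% were called as higher in WAP-SVT/t against NMRI glands and 12.6% in tumors against NMRI glands. In WAP-SVT/t against NMRI glands, 5 of 28 macrophage and myeloid probe sets were higher, among them Aif1, a macrophage calcium-binding protein gene, 3.07-fold (limma, adjusted p = 0.0168), with a list median of 0.98. In the fit of the glands alone with the block 12 of 25 were higher and 1, Cd14, was lower (limma). Of all probe sets 16.1% passed in that fit. In tumors against NMRI glands 15 of 28 were higher and 1 lower, with a median of 1.09. Of 13 B cell probe sets 1 was higher in WAP-SVT/t glands than in NMRI glands, with a list median of 0.13. In tumors against NMRI glands 0 of 13 passed (limma, 4 at an unadjusted p under 0.05), with a median of -0.92. In tumors against WAP-SVT/t glands 1 of 13 was lower, with a median of -0.71, where 1.27% of all probe sets passed as lower. The B cell gene called in WAP-SVT/t glands was Blnk, 2.61-fold higher (limma, adjusted p = 0.0311). Blnk also read 341 in the line ME-A, above every NMRI gland (117 to 227), so the call is for this gene and not for the list. Of 7 dendritic cell probe sets tested 0 passed in WAP-SVT/t against NMRI glands (0 at an unadjusted p under 0.05), with a median of 0.24. In tumors against NMRI glands 1 passed, with a median of 0.18. It was Batf3, a dendritic cell transcription factor gene, 2.12-fold higher (limma, adjusted p = 0.0398). Batf3 also read 170.5 and 174 in the lines ME-A and ME-B-T/t, above every NMRI gland (96.2 to 124). The macrophage sums were 23564 to 27199 in tumors, 15978 to 29644 in WAP-SVT/t glands and 14252 to 22959 in NMRI glands. Their part in the H2-Eb1 difference was not tested.

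The members varied together to different degrees. Over the 9 tissue arrays, Pearson correlations between the log2 values of member probe sets ran from 0.328, for H2-Eb1 and H2-Aa 1452431_s_at, to 0.965, for that H2-Aa probe set and H2-DMa. Cd74 correlated at 0.935 with H2-Aa 1435290_x_at and at 0.745 with H2-Eb1. Arrays that share a group are not independent, so these values only describe the 9 arrays. Over all 12 arrays the genes most like the mean of the members were Ccl6, a myeloid chemokine gene (r = 0.963), Clec7a, the beta-glucan receptor gene (0.957), Ifitm1 (0.955), Srgn, a proteoglycan gene of blood cell granules (0.949), and Ncald (0.949), followed by Lcp1, Clec4n, Cyp2d22, Gstk1 and Selplg (0.937 to 0.943). Over the 9 tissue arrays they were Cyp4f16 (0.950), Tnfaip2 (0.939), Ankrd1 (0.919), Bace2 (0.915) and Il1rn, the interleukin-1 receptor antagonist gene (0.909), followed by Napsa, Cd44, Camk1, Lgals3bp and C1qtnf1 (0.888 to 0.905). The top 10 lists shared 0 genes. Over all 12 arrays the genes of the tissue list ran from -0.82 for Ankrd1 to 0.908 for Bace2, with Cyp4f16 at -0.065 and Tnfaip2 at -0.013. Over the 9 tissue arrays the genes of the other list ran from 0.69 for Lcp1 to 0.854 for Srgn. Cd44, whose product is a partner of the invariant chain in receptor complexes for the cytokine Mif, read 1117, 1518 and 176 in tumors 1 to 3 by 1423760_at. In the lines it read 480, 2166 and 1303, so it was not low there as Cd74 was.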

How the data were processed

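The authors deposited linear probe set signals, an intensity unit, made with MAS5 per the submitters' processing notes. The notes give no version, scaling target or detection calls. Arrays were scaled to their mean trimmed mean (2% off each end), which lay within 1.19-fold of each other before scaling. A floor at the pooled 30th percentile (57.3) was applied and log2 of the deposited, scaled signals was taken. Left out were 64 control probe sets, 691 with several genes and 1555 with none in the platform annotation. A probe set was tested if at least 3 arrays of the fit exceeded the pooled median (139.7). Each probe set was tested on its own with limma 3.58.1 in R 4.3.3 (lmFit, eBayes with trend, two-sided), adjusted by Benjamini-Hochberg over all probe sets tested. The 9 tissue arrays were fitted together (6 residual degrees of freedom), and lines and tumors as 2 groups (4 residual degrees of freedom). The fit was tested on simulated data. Same-numbered WAP-SVT/t and NMRI glands deviated together from their group means (r = 0.229 to 0.438 in 3 pairs, against -0.41 to 0.072 in 6 other pairs), so the numbers were taken to pair the glands, from the data and not from the labels. Those of tumors and glands were not, with r down to -0.15. A fold against a group wholly at the floor is a lower bound. Where the table of levels by list needed 1 probe set per gene, the brightest was used.

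Named were all member probe sets, genes of the lists of class II chains, exchange factors and regulators, the 10 genes most correlated with the members, and up to 3 genes of smallest p per list and comparison. Exceptions are named as such in the text, and Ifng was likewise chosen with values known. The members and the 14 lists (196 genes, 180 with a probe set) were chosen with earlier results of these data known. Promoters are RefSeq sequences of GRCm38.p6, and no window for H2-Ab1 or Cd74 is shown. Windows on chromosome 18, where Cd74 lies, were left out of the search by gene. Figures were drawn with matplotlib. The alternatives were quantile normalization, no further scaling, log2(value + 50), a floor at the 10th percentile, no filter, a filter on the mean, 1 probe set per gene, no trend, other arrays in the fit, a replicate block and leaving out each array.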

Additional observations from a re-analysis of the deposited data

How the results depend on the processing

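In WAP-SVT/t against NMRI glands the count of member probe sets called was 1 in 9 of 10 other settings and 0 without a filter, and 0 to 1 over 9 fits without 1 array. In tumors against NMRI glands it was 0 without a filter and 0 with only the 2 groups in the fit (H2-Eb1 adjusted p = 0.0502, limma), 1 in the 8 other settings, and 0 to 4 over 9 fits without 1 array. In tumors against WAP-SVT/t glands it was 0 in all 10 other settings and all 9 such fits. In cell lines against tumors it was 0 without a filter and 3, of 5 genes, with 1 probe set per gene, and between 0 and 6 over all 9 other settings. It was 1 to 6 over 6 fits without 1 array. No filter raised the probe sets tested to 20380. The causes of the other changes were not tested. No called difference turned its direction under these alternatives. H2-Ab1 1451721_a_at, called in cell lines against tumors at adjusted p = 0.0487, passed in 3 of 8 other settings.

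Over all 9 same-numbered pairs of tissue arrays, 5 correlated above 0.1, and 7 of 9 arrays correlated best with an array of their own number. With the replicate block in the fit of all tissue arrays the member counts stayed at 1, 0 and 1 for WAP-SVT/t against NMRI glands, tumors against WAP-SVT/t glands and tumors against NMRI glands. Calls over all probe sets were 1266, 320 and 3002 with it, against 1067, 269 and 2684 without it. With the glands alone and the block, added after seeing the data, they were 1735 for WAP-SVT/t against NMRI glands, and no member call changed. No paired analysis was possible for the lines because they carry no number. Calls over all probe sets in tumors against WAP-SVT/t glands were 68 without a filter and 140 with only 2 groups, against 269. In cell lines against tumors they were 135 without a filter and 610 with all 12 arrays in the fit, against 261. Without further scaling the median of all differences between WAP-SVT/t and NMRI glands was 0.12, against 0.02.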

Other observations

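Interferon-gamma responders differed between the lines while the class II genes were low in all 3. Psmb9, an immunoproteasome subunit gene, read 1594 in ME-A, 70.0 in ME-B and 970 in ME-B-T/t. Igtp, an interferon-induced GTPase gene, read 696, 115 and 692, and Irf1, an interferon-induced transcription factor gene, 762, 396 and 751 in the same order of lines. The 18 genes of that list had a mean log2 signal of 8.68 in ME-A, 7.18 in ME-B and 8.56 in ME-B-T/t. The I-A chain genes stayed at or near the floor in ME-A and ME-B-T/t, where Psmb9 was above its tumor signals of 637 to 919. With 1 array a line there is no test, and the genes were chosen after their values were seen.

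Some T and NK cell markers were lower in WAP-SVT/t tissue than in NMRI glands. Gzma, a granzyme gene of cytotoxic lymphocytes, was 7.33-fold lower in tumors than in NMRI glands (limma, adjusted p = 5.95e-05), a size that depends on the floor because 2 of 3 tumors were under it, and 3.48-fold lower in WAP-SVT/t glands than in NMRI glands (limma, adjusted p = 0.00229). Of 6 T and NK cell probe sets tested, 4 were lower in tumors and 3 in WAP-SVT/t glands, each against NMRI glands. Over all probe sets 10.5% and 3.53% were called as lower in these comparisons.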
